A study of Sus scrofa with 21 samples.

Results

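TOR3A, GSG1, COL16A1, SPINK4, KAZALD1, PCP4, LGALS7 and LY6D are 8 genes whose array signal in whole blood was far higher in DD than in LW pigs. They were selected on that breed difference, out of 12158 genes that the probes of the array name, so their differences are given below as a description and were not tested. A wide spread among LW pigs was also known beforehand for TOR3A and GSG1. The DD pigs are SLAdd animals, an inbred minipig line homozygous at the major histocompatibility complex of the pig (SLA), and the LW pigs are Large White animals, a commercial breed, which served as controls. Blood was taken into PAXgene tubes at 60 days of age from 10 DD pigs born to 5 sows and from 11 LW pigs born to 6 sows, all on the same standard diet fed ad libitum. RNA of each pig was labelled with Cy3 and hybridised on its own array, a custom Agilent pig array, and the arrays lay on 3 chips of 7, 8 and 6 arrays, each with both breeds. As the DD line is inbred, its pigs are related beyond the litter. Pigs of the same sow, called littermates here, always lay on different chips, and 1 LW pig, LW_02, had no littermate on an array.

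The 8 genes have no single role in common. TOR3A is a torsin, an ATPase of the endoplasmic reticulum whose transcript is known to respond to interferon. GSG1 is a germ cell-associated membrane protein of the PMP22 and claudin superfamily. COL16A1 encodes a collagen that associates with fibrils. SPINK4 and KAZALD1 are secreted proteins with a Kazal-type domain, the fold of many serine protease inhibitors, and SPINK4 is known from goblet cells of the gut. PCP4, also called PEP-19, is a small neuronal protein that modulates calmodulin. LGALS7 is the galectin of stratified epithelium, and LY6D is a GPI-anchored protein of the LY6 family found on keratinocytes and on early lymphoid cells. Whole blood mixes red cell precursors, platelets and leukocytes, and in such bulk RNA a larger share of a cell type and more RNA per cell cannot be told apart.

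In the RefSeq annotation of Sscrofa11.1, TOR3A lies at chr9:120859834-120885925, GSG1 at chr5:59391069-59413835, COL16A1 at chr6:88177798-88243718, SPINK4 at chr10:33246260-33255617, KAZALD1 at chr14:112142746-112146538, PCP4 at chr13:203412479-203479216, LGALS7 at chr6:47588983-47604520 and LY6D at chr4:1444029-1445714. Only COL16A1 and LGALS7 share a chromosome. These are the positions of the genes, since the scanner files give no mapped position for the probes.

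The genes were measured by 12 probes of 60 bases. The gene name column of the scanner files spelled 7 of the genes in 9 probes. The TOR3A probe and a copy of a SPINK4 probe were found through their pig RefSeq accession, and a COL16A1 probe was found after letter case was ignored. The probes of PCP4 and LY6D carry human and mouse accessions, and those of GSG1 and of COL16A1 (probe 1) carry protein accessions, so the naming of these 4 rests on a match the array design made. All 12 probes passed the filter on low means. A gene with several probes is led here by the one with the highest mean, called probe 1.

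The probe sequences are shown because 1 of the 3 SPINK4 probes did not share the breed difference and because some genes rest on a single probe. They are written 5′ to 3′ and come from the scanner files. Capitals mark the hexamer AATAAA, the usual polyadenylation signal, which was searched on the printed strand and stood in 4 of the 12 probes and in 10.3% of all 60305 probes (14.1% with both strands). For probes without a clear reading frame only 30 bases are shown.
TOR3A probe, bases 31 to 60: atccttcattgtgtcataagtaaagattaa
GSG1 probe: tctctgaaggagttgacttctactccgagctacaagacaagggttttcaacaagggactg
SPINK4 probes 1 and 2: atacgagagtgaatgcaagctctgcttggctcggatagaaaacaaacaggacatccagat
SPINK4 probe 3, bases 21 to 50: tgtcagtaggaaAATAAAattatgtagagc
KAZALD1 probe, bases 26 to 55: cagtaggcacgcAATAAAgatttatggaca
COL16A1 probe 1, bases 31 to 60: gtgatgggttgtgaatgtttggggtttttt
LGALS7 probe 1, bases 24 to 53: ctcttggccgccAATAAAgtcttcgtccgt
LGALS7 probe 2: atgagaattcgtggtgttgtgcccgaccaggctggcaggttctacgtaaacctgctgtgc
LY6D probe: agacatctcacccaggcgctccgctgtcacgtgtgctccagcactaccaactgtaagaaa
SPINK4 probes 1 and 2 are the same sequence, and their values differed by at most 0.13 (log2) on any array, so they count as 1 measurement.

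Arrays did not all resemble those of their breed. Likeness was a correlation over the 45228 probes kept, of values relative to each probe's own level and not of the signals themselves. The arrays of DD_06 and LW_07 had a median of -0.15 and -0.21 with the other arrays of their own breed. With those of the other breed the median was 0.10 and 0.07. The arrays of DD_13 and LW_15 came next, with -0.03 and 0.02 within their breed. DD_06, LW_07 and LW_15 were left out together in an added alternative, the last of them because earlier results of these data had set it apart, and not by this measure. The DD arrays were also dimmer. Array brightness, taken as the upper quartile (75th percentile) of an array's processed signal on a log2 scale, ran from 6.56 to 8.49 in DD (median 7.64) and from 7.37 to 8.62 in LW (median 8.41). LW_07 was the dimmest LW array (7.37) and DD_06 the brightest DD array (8.49). The number of probes differing between breeds moved with these arrays and with chip 3, and the counts of neighbours and of interferon-stimulated genes are given beside the values without them.

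Values are deposited log2 signals after quantile normalisation, and a difference is DD minus LW from a fit with chip and sow, with its standard error (SE). In that fit 11.0% of all probes were called higher in DD at an adjusted p of 0.05 (limma, Benjamini-Hochberg). Of the 12 probes 11 were called, including all 8 leading ones, which follows from their selection. By the size of the difference, 10 of the 12 stood among the 40 largest of the 45228 probes, and TOR3A was the first. The rule set no limit of size. LY6D was the smallest of the leading probes and stood at rank 179.

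TOR3A had the largest difference and the widest spread. The 10 DD pigs lay between 8.66 and 11.03, with a median of 9.62 and a mean of 9.63 ± 0.65 (SD, n = 10). The LW pigs fell apart into 3 high and 8 low animals, with a mean of 5.14 ± 2.30 (SD, n = 11) that described neither. LW_02 had 8.88, LW_07 had 7.98 and LW_14 had 8.99, while LW_04 had 3.72, LW_05 had 3.71, LW_09 had 2.80, LW_12 had 3.69, LW_15 had 4.89, LW_18 had 3.82, LW_22 had 3.92 and LW_24 had 4.19. The gap between 4.89 and 7.98 took 50.1% of the LW range, the largest share among the 8 genes on the deposited values. PCP4, where 1 undetected pig stood below the others, passed TOR3A when the arrays were scaled to the 75th percentile (58.3% against 51.3%) and after chip correction (46.6% against 41.9%). LW_02 and LW_14 lay above DD_01, the lowest DD pig.

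The scanner signal showed the same parting. By the flags of the scanner files the TOR3A probe stood well above background on each of the 10 DD arrays and on 3 LW arrays, which were those of the 3 high pigs. Its processed signal was 308 to 2847 in DD, 163 to 625 in the 3 high LW pigs and 2.77 to 14.2 in the other 8, whose values are thus background and carry no order. The breed difference was 4.57 (SE 0.65). On this scale it mixes a detected and an undetected state, and it came to 6.23 when the arrays were scaled to the 75th percentile and to 2.98 with a normexp offset of 50. The spread among LW pigs exceeded that of 99.9% of the probes, whereas that among DD pigs exceeded 78.0%. As the wide LW spread of TOR3A was known when the genes were chosen, nothing is read from this rank.

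GSG1, the other gene with a wide LW spread, was graded. The DD pigs lay between 7.21 and 9.22 (median 8.19; mean 8.20 ± 0.63 SD, n = 10). The LW pigs lay between 3.18 and 7.38 (median 5.91; mean 5.62 ± 1.28 SD, n = 11). The 2 lowest, LW_02 with 3.18 and LW_22 with 3.59, were not well above background, and the largest gap, up to 5.12 in LW_09, set them apart from the other 9. From there the values rose to LW_07 with 7.00 and LW_04 with 7.38, and LW_04 passed the 2 lowest DD pigs. The difference was 2.57 (SE 0.40), or 5.94-fold. The pig lowest in GSG1 was thus 1 of the 3 that were high in TOR3A, and over the 11 LW pigs the genes correlated with r = -0.18.

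**Figure D1:**
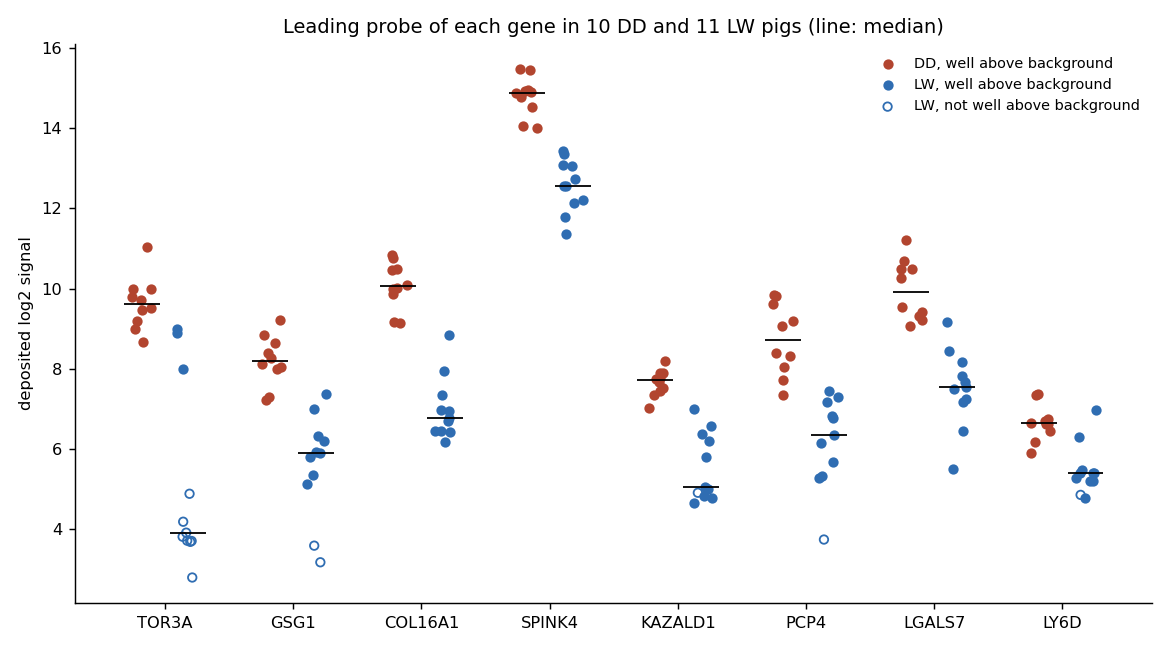
Deposited log2 signal (vertical axis) of the leading probe of each of the 8 genes (horizontal axis) in 10 DD and 11 LW pigs, 1 point per pig, with lines at the medians and open points where the probe was not well above background. TOR3A parts the LW pigs into 3 high and 8 undetected animals, whereas the DD and LW points of COL16A1, SPINK4 and KAZALD1 do not overlap.

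COL16A1, SPINK4 and KAZALD1 were the 3 genes whose leading probe was higher in every DD pig than in every LW pig, which held for 0.104% of all probes. Since the breed difference chose the genes, nothing is read from that share. COL16A1 had 9.15 to 10.84 in DD (median 10.06; mean 10.09 ± 0.59 SD, n = 10) and 6.19 to 8.84 in LW (median 6.76; mean 7.01 ± 0.78 SD, n = 11). LW_15 with 8.84 and LW_05 with 7.95 stood at the top of the LW pigs. The difference was 3.06 (SE 0.29), or 8.35-fold. Probe 2 of COL16A1, another sequence, gave 2.68 (SE 0.27), with 1 LW pig above the lowest DD pig. Chip-corrected values of the probes correlated with r = 0.91 over LW and r = 0.94 over DD pigs.

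SPINK4 was by far the brightest of the 8. Probe 1 had 14.01 to 15.46 in DD (median 14.88; mean 14.79 ± 0.49 SD, n = 10) and 11.36 to 13.44 in LW (median 12.57; mean 12.57 ± 0.66 SD, n = 11). Its median processed signal was 28736 in DD and 7698 in LW, and it was well above background on all 21 arrays. The difference was 2.25 (SE 0.23), or 4.75-fold, and the LW pigs formed an even series in which no gap took more than 20.2% of the range. Probe 3 differed by 0.28 (SE 0.14), and 8 of the 11 LW pigs lay at or above the lowest DD pig. Its values ran against those of probe 1, with r = -0.39 over LW and r = -0.80 over DD pigs. The name SPINK4 therefore covers a bright sequence with the difference and a dim one without it.

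KAZALD1 had 7.01 to 8.20 in DD (median 7.71; mean 7.65 ± 0.33 SD, n = 10), the narrowest DD spread of the leading probes. In LW it ran from 4.66 to 7.01 (median 5.05; mean 5.57 ± 0.85 SD, n = 11). LW_12 had 7.01, LW_04 had 6.58, LW_09 had 6.38, LW_24 had 6.20 and LW_15 had 5.81, and the other 6 lay between 4.66 and 5.05. The highest LW and the lowest DD pig were equal at 2 decimals. The difference was 2.07 (SE 0.26), or 4.20-fold. The pigs high in KAZALD1 were not those high in TOR3A, and r between the genes was -0.63 over the LW pigs.

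PCP4 had 7.35 to 9.84 in DD (median 8.73; mean 8.73 ± 0.89 SD, n = 10) and 3.75 to 7.46 in LW (median 6.35; mean 6.19 ± 1.11 SD, n = 11). Only LW_22 with 3.75 was not well above background, and the other 10 LW pigs ran evenly from 5.27 up, with LW_18 above the lowest DD pig. The difference was 2.58 (SE 0.39). LGALS7, by probe 1, had 9.08 to 11.20 in DD (median 9.91; mean 9.97 ± 0.74 SD, n = 10) and 5.50 to 9.16 in LW (median 7.56; mean 7.52 ± 0.98 SD, n = 11). LW_07, on the dimmest LW array, had 9.16 and lay within the DD range, and LW_12 with 5.50 was the lowest. The difference was 2.47 (SE 0.34) with probe 1 and 2.29 (SE 0.38) with probe 2, whose chip-corrected values followed probe 1 with r = 0.95 over LW and r = 0.75 over DD pigs.

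LY6D had the smallest difference and the most overlap. The DD pigs lay between 5.90 and 7.36 (median 6.64; mean 6.66 ± 0.45 SD, n = 10). The LW pigs lay between 4.79 and 6.97 (median 5.41; mean 5.48 ± 0.63 SD, n = 11). LW_09 with 6.97 and LW_04 with 6.29 stood above the other 9, none of which passed 5.49, and these 2 pigs lay within the DD range. Of the 10 DD pigs 8 lay at or below LW_09. The difference was 1.20 (SE 0.22), or 2.29-fold.

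Judged by eye, the LW pigs thus took 3 shapes. TOR3A was detected or not, COL16A1, KAZALD1 and LY6D had a low majority with 2 to 5 higher pigs, and GSG1, SPINK4, PCP4 and LGALS7 were graded. Apart from TOR3A the largest gap took between 20.2% and 41.1% of the LW range on the deposited values, and which pigs lay above it changed with the normalisation or the chip correction in 6 of those 7 genes, PCP4 being the exception. The high pigs differed between genes, which the pairwise correlations over the 11 LW pigs show. They ran from -0.63 for TOR3A with KAZALD1 to 0.70 for SPINK4 with PCP4, and SPINK4 with LGALS7 followed with 0.69. In DD the highest of these correlations was that of GSG1 with SPINK4, at 0.97 over 10 pigs, against 0.23 in LW, and in DD each had r = -0.82 with array brightness. These are descriptions of values from the same arrays, chip-corrected, with the brightness of the array in common.

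Littermates were then compared, because agreement within a litter played no part in the choice of the genes by breed difference. The mean absolute difference within the 5 littermate pairs of a breed, on chip-corrected log2 values, was set against all 945 ways of pairing the same 10 pigs (one-sided exact permutation test, smallest possible p = 0.00106). Over all probes 3.16% had p under 0.05 in LW and 3.33% in DD, and none passed Benjamini-Hochberg adjustment, so no single gene stands beyond the number of probes tested. With that smallest p over 45228 probes a single probe could hardly have passed, so the adjustment cannot decide whether littermates agree in any 1 gene. The adjusted p was 1 for each of the 8 genes. Of the 8 leading probes 3 had p under 0.05 in LW and 1 in DD.

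COL16A1 showed the closest littermates. In LW they differed by 0.24 on average and other pairs by 0.94 (exact permutation p = 0.00317, 5 pairs). The 2 highest LW pigs, LW_05 and LW_15, were littermates with chip-corrected values of 8.11 and 8.78, and the pairs of LW_12 with LW_24, LW_04 with LW_09 and LW_07 with LW_18 differed by 0.01, 0.09 and 0.14. Probe 2 gave 0.47 against 0.81 (exact permutation p = 0.0286). In DD the COL16A1 littermates differed by 0.36 and other pairs by 0.71 (exact permutation p = 0.0497), and the low values came from 1 litter, in which DD_06 had 9.33 and DD_11 had 9.08. The DD value lost its place under 0.05 in 3 of the 5 alternatives tried, whereas the LW value of COL16A1 probe 1 kept it in all 5, with p from 0.00317 to 0.0116. Probe 2 lost it in LW with normexp recomputed (p = 0.0921, exact permutation).

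Of the 5 higher LW pigs of KAZALD1, 4 came from 2 litters, and the littermate of LW_15 was low. LW_12 and LW_24 had chip-corrected values of 6.73 and 6.40, LW_04 and LW_09 had 6.65 and 6.11, and no pig of the other litters exceeded 5.54. Littermates differed by 0.47 and other pairs by 1.04 (exact permutation p = 0.0476). For LGALS7 the differences were 0.61 and 1.18 (exact permutation p = 0.0476), where the littermates LW_12 and LW_24 were the 2 lowest. When pairings were restricted to pigs on different chips, as littermates are, p was 0.0741 for KAZALD1 and 0.0926 for LGALS7. In LY6D the high pigs LW_04 and LW_09 were littermates, yet littermates differed by 0.48 against 0.71 in other pairs (exact permutation p = 0.0857).

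No agreement within LW litters was seen for TOR3A or GSG1. Among the LW pigs with a littermate only LW_07 and LW_14 were TOR3A-high. The other TOR3A values are background, so its test cannot decide how far litters share that state. Both TOR3A-high pigs with a littermate had a low one. LW_07 had a chip-corrected value of 7.42 and LW_18 of 4.44, and LW_14 had 8.93 and LW_22 had 4.54. The mean difference of TOR3A was 2.13 within and 2.17 outside LW litters (exact permutation p = 0.410). For GSG1 it was 1.32 within and 1.09 outside (exact permutation p = 1), since LW_14 with LW_22 differed by 2.68 and LW_04 with LW_09 by 2.12. SPINK4 gave p = 0.346 and PCP4 p = 0.352 by the same exact permutation in LW. In DD no gene other than COL16A1 had p under 0.05 by this exact permutation, and littermates differed more than other pairs in TOR3A, PCP4, LGALS7 and LY6D.

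**Figure D2:**
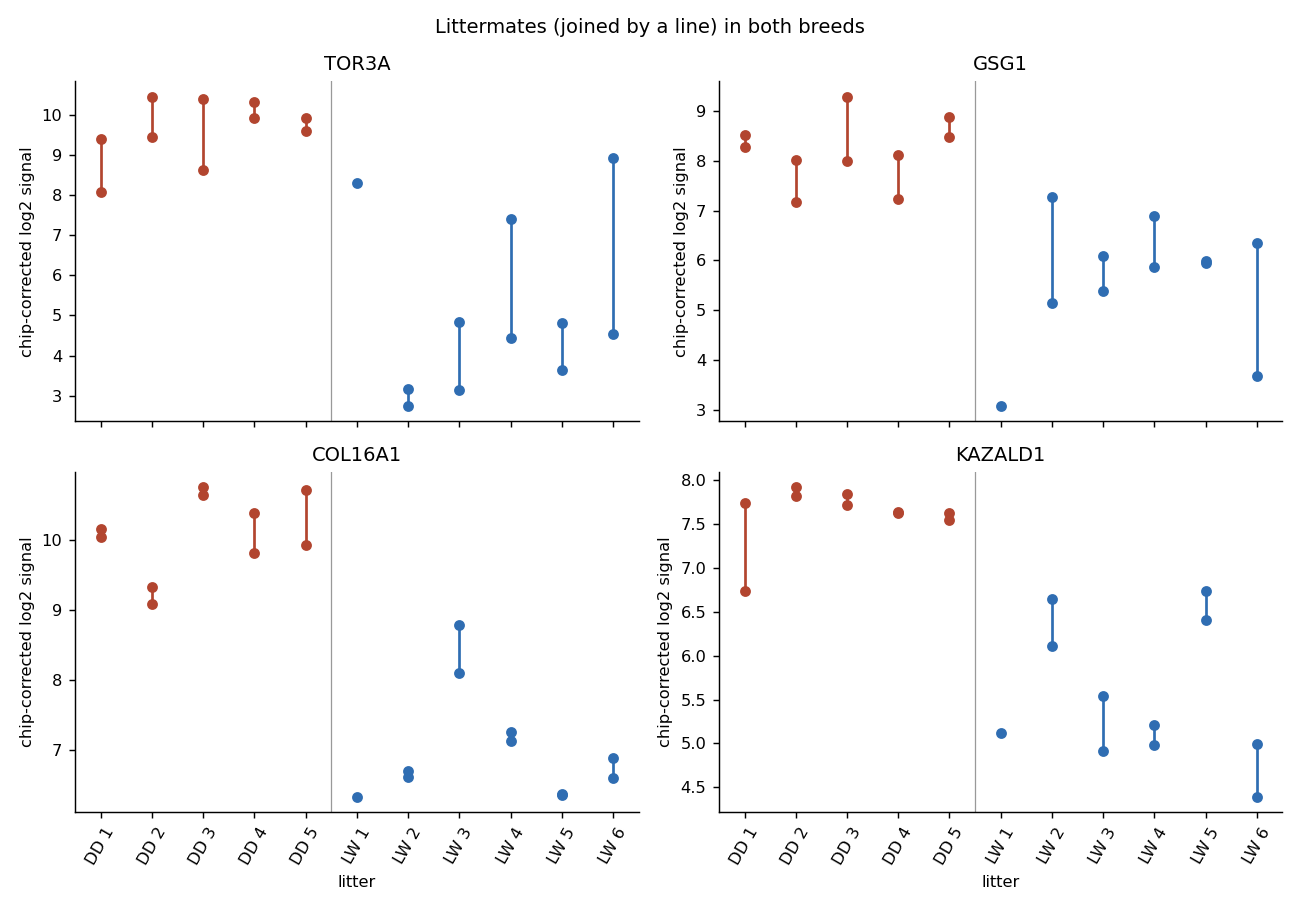
Chip-corrected log2 signal (vertical axis) of TOR3A, GSG1, COL16A1 and KAZALD1 in each litter (horizontal axis), 1 point per pig, with lines joining littermates; LW litter 1 has 1 pig. The 2 highest LW pigs of COL16A1 and the 4 highest of KAZALD1 share litters, whereas LW litters 4 and 6 each hold a TOR3A-high and a TOR3A-low pig.

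**Figure D3:**
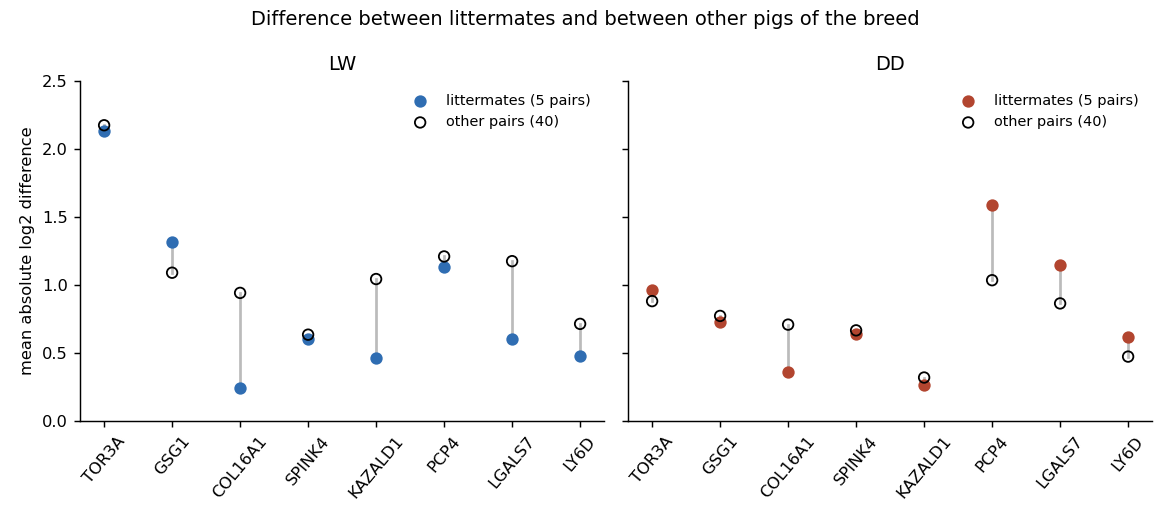
Mean absolute log2 difference (vertical axis) within the 5 littermate pairs (filled) and the 40 other pairs (open) of each breed, for the leading probe of each gene (horizontal axis). In LW the largest drop is that of COL16A1, from 0.94 to 0.24, and TOR3A shows nearly none.

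On each of the 3 chips taken alone every leading probe was higher in DD. Since the genes were chosen by their difference over these same arrays, nothing is read from that direction. TOR3A differed by 3.56, 4.65 and 5.53 on chips 1, 2 and 3, GSG1 by 2.07, 2.40 and 3.45, and COL16A1 by 2.99, 2.72 and 3.61. SPINK4 differed by 1.57, 2.21 and 3.06, PCP4 by 1.55, 2.64 and 3.65, and LGALS7 by 1.57, 2.84 and 2.97. Those 6 genes had their largest difference on chip 3, unlike KAZALD1 (2.39, 1.78 and 2.11) and LY6D (1.30, 1.07 and 1.24). Without chip 3 the differences of the 8 genes ran from 1.19 to 3.95.

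Slopes on array brightness were computed next. With brightness added to the fit, 14.3% of all probes had a slope below 0 at an adjusted p of 0.05 (limma, Benjamini-Hochberg), meaning a higher normalised signal on dimmer arrays of the same breed and chip. Of the 12 probes 5, from 3 genes and with SPINK4 probes 1 and 2 both counted, were among them. SPINK4 fell by 0.92 per log2 unit of brightness (SE 0.19, limma adjusted p = 0.00164), LGALS7 by 1.22 (SE 0.33, limma adjusted p = 0.0101), and COL16A1 by 0.86 in probe 2 (SE 0.27, limma adjusted p = 0.0207) but by 0.60 in probe 1 (SE 0.33, limma adjusted p = 0.170). GSG1 (-1.09, SE 0.45), PCP4 (-0.98, SE 0.45) and TOR3A (-0.84, SE 0.81) had slopes of like size that did not pass. The slope was 0.05 (SE 0.32) for KAZALD1 and 0.24 (SE 0.27) for LY6D. As DD arrays were dimmer, the breed difference in that fit was smaller for 6 genes, at 3.98 for TOR3A, 2.66 for COL16A1, 1.91 for PCP4, 1.85 for GSG1, 1.63 for LGALS7 and 1.62 for SPINK4. It was 2.11 for KAZALD1 and 1.36 for LY6D. What part brightness had in the differences was not tested. Leaving out DD_06, LW_07 and LW_15, the differences were 4.65 for TOR3A, 3.45 for COL16A1, 2.93 for LGALS7, 2.80 for GSG1, 2.70 for PCP4, 2.56 for SPINK4, 1.95 for KAZALD1 and 1.08 for LY6D.

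**Figure D4:**
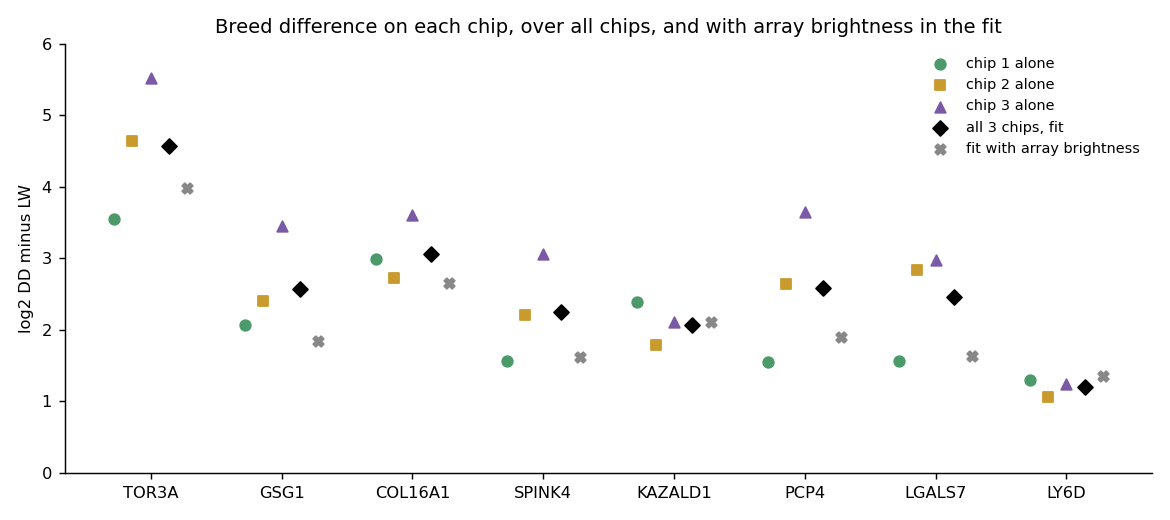
Log2 DD minus LW (vertical axis) of the leading probe of each gene (horizontal axis) on each chip alone, in the fit over all chips and in the fit with array brightness. All points lie above 0, and 6 of the genes have their highest point on chip 3; the genes were chosen by this difference over the same arrays.

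The neighbours of the 8 genes on the chromosome played no part in the choice. The 5 nearest measured genes on each side of each gene made 80 genes, of which 10 were called higher in DD and 5 lower (limma adjusted p of 0.05), against 23.8% of all 10417 genes called in either direction. Their median difference was 0.00. None of the 10 neighbours of LGALS7 was called. TDRD5 (0.60, SE 0.16) and QSOX1 (0.75, SE 0.27) were called beside TOR3A, HEBP1, a haem-binding protein, beside GSG1 (0.73, SE 0.16), TMEM215 beside SPINK4 (0.98, SE 0.30), and LY6H, a LY6 gene like LY6D, beside LY6D (1.06, SE 0.31). PAX2 beside KAZALD1 (0.90, SE 0.27), SERINC2 beside COL16A1 (0.87, SE 0.27) and TFF2 beside PCP4 (0.75, SE 0.27) were called higher too. The most distant from 0 were MX1 (1.46, SE 0.37) and MX2 (1.41, SE 0.31), interferon-induced GTPases that lie 1431 and 1386 kb from PCP4. The 5 called lower included BACE2 (-0.46, SE 0.13) and BRWD1 (-0.41, SE 0.13), both beside PCP4. The others were AQP3 beside SPINK4 (-0.60, SE 0.15), TXLNA beside COL16A1 (-0.39, SE 0.09) and MRPL43 beside KAZALD1 (-0.38, SE 0.12). Without chip 3 none of the 80 was called, with brightness in the fit 2 were, and without DD_06, LW_07 and LW_15 31 were.

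**Figure D5:**
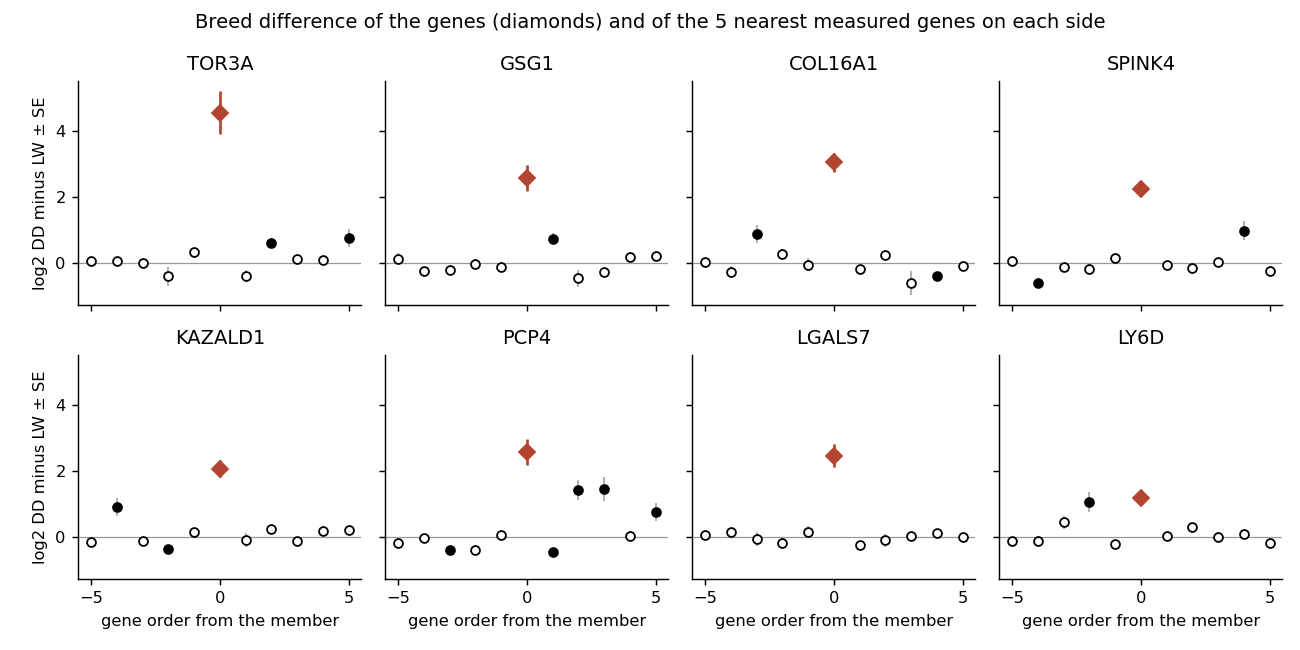
Log2 DD minus LW with SE (vertical axis) of each of the 8 genes (diamond) and of the 5 nearest measured genes on each side in chromosome order (horizontal axis), filled where the adjusted p was under 0.05. The neighbours lie between -0.61 and 1.46, and none beside LGALS7 is filled; the diamonds are the values the genes were chosen by.

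Among relatives of the 8 genes, the interferon-stimulated genes, listed because TOR3A is known to respond to interferon, stood apart by their count. Of 28 measured genes of 34 listed, 14 were higher in DD and 0 lower (limma adjusted p of 0.05), with a median difference of 0.65 against -0.06 over all genes, of which 23.8% were called. OAS1 was higher by 1.88 (SE 0.61), CXCL10 by 1.86 (SE 0.51), MX1 by 1.46 (SE 0.37) and MX2 by 1.41 (SE 0.31). OAS1 and the MX genes encode antiviral proteins and CXCL10 a chemokine. The count depended on the arrays. It was 0 without chip 3 (median 0.54), where 113 of all 10417 genes were called, 3 with brightness in the fit (median 0.88), where 246 were, and 9 without the chip term, where 718 were. Without DD_06, LW_07 and LW_15 it was 13 higher and 1 lower (median 0.43), where 4327 of all genes were called. Over the 11 LW pigs the TOR3A probe had correlations from -0.61 to 0.30 with the 28 genes (median 0.04).

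The other lists are set against the same 23.8% of all genes called in either direction, of which 11.3% higher. Of 4 measured torsins and torsin cofactors none was called, with differences from -0.44 to 0.11. Of 15 other Kazal domain genes 3 were called higher and 2 lower, among them SPOCK1 (0.91, SE 0.29), SMOC2 (0.62, SE 0.22) and SLCO4A1 (0.56, SE 0.17) upward and SPOCK2 (-0.61, SE 0.18) downward. Of 8 other galectins LGALS13 (0.82, SE 0.24) and LGALS9 (0.77, SE 0.23) were called higher. Of 9 claudin relatives of GSG1, CLDN15 was called higher (0.63, SE 0.19) and CLDN12 lower (-0.68, SE 0.17). Of 5 other fibril-associated collagens COL14A1 was called (0.36, SE 0.11), of 8 other LY6 and uPAR genes LY6H alone was, and of 16 calmodulin genes and regulators CAMKK2 (-0.43, SE 0.11) and PPP3CB (-0.27, SE 0.09) were called lower. Each list except the interferon-stimulated one had a median between -0.16 and 0.30.

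Markers of blood cells and of the tissues in which several of the 8 genes are best known were then read. Blood markers were present, since all 5 measured erythroid, all 6 T cell and all 6 B cell markers were detected, that is well above background on at least 5 of the DD or 6 of the LW arrays. Of keratinocyte markers 5 of 10 were measured and 2 detected, with KRT5, DSG1 and DSP not detected. SFN was called higher in DD (0.37, SE 0.12), while PERP differed by -0.25 and was not called. The signals of the 5 measured markers were summed and the log2 of the sum taken, in which the brightest marker weighs most. It was 7.01 to 7.86 in DD and 6.91 to 7.51 in LW. Of gut epithelial markers 6 of 8 were measured and 2 detected. MUC2, a goblet cell mucin, was called higher in DD by 0.90 (SE 0.27). FCGBP, detected on 3 DD and 8 LW arrays, differed by -0.21 and was not called. CDX2, KRT20 and REG4 were not above background on any array. The log2 of the summed signals of the gut markers was 8.06 to 8.93 in DD and 7.72 to 8.75 in LW, and the ranges below are of the same kind. Of neuronal markers 2 of 6 were detected (7.10 to 7.61 in LW and 6.86 to 7.45 in DD), of fibroblast markers 4 of 6, with LUM called higher by 0.44 (SE 0.13) (7.53 to 9.08 in DD and 7.23 to 8.32 in LW), and of germ cell markers 3 of 5 (10.52 to 14.29 in DD and 9.62 to 12.67 in LW). ACR, the sperm protease acrosin, was among the last and was higher in DD by 0.88 (adjusted p = 0.0270, limma), as was PRM1, a protamine, by 0.43 (SE 0.14). SYCP3, the other detected germ cell marker, differed by 0.05 and was not called, and DDX4 and TNP1 were not detected. The other detected fibroblast markers, COL3A1 (0.47), DCN (0.31) and COL1A2 (-0.27), were not called. The erythroid sum overlapped, at 18.04 to 19.16 in DD and 17.70 to 19.20 in LW, although ALAS2 (0.75), an enzyme of haem synthesis in red cell precursors, was called higher in DD by limma. What part any of these cells had in the 8 genes was not tested.

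The genes most like each of the 8 over the LW pigs were found among the other named genes by Pearson's r of chip-corrected values, over 11 pigs and 10416 genes, as a description. Since 8 of the LW values of TOR3A are background, its correlations, those with KAZALD1 and with the interferon-stimulated genes included, rest on 3 pigs against the rest. For TOR3A they were CENPI (0.90), NHS (0.89) and RHBDL2 (0.86), none of which kept a like correlation in DD (-0.09, 0.26 and -0.09). For GSG1 they were LMO3 (0.90), CACNA1S (0.87) and CCS (0.85). For COL16A1 they were JAZF1 (0.90), PSMD13 (0.89) and RAB33A (0.88), and for KAZALD1 ASB1 (0.92), PPFIBP2 (0.86) and GLYCTK (0.86). SPINK4 had ESCO1 (0.91), BCAS1 (0.91) and DPF2 (0.91), which alone among these sets all stayed above 0.7 in DD (0.72, 0.80 and 0.75). PCP4 had LOC100515693 (0.91), PIP4K2A (0.88) and NUDT22 (0.87), LGALS7 had ATXN1L (0.95), SNAP23 (0.93) and ICAM3 (0.93), and LY6D had NPAS2 (0.93), TTBK1 (0.92) and RNASE10 (0.91).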

How the data were processed

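Blood RNA of each pig was measured on 1 array. Intensity values were deposited as scanner output, made by the authors with Agilent Feature Extraction 10.7.3.1, with flags for signals well above background and for saturation (0 saturated probes). The deposited log2 values are a matrix to which the authors applied normexp background correction, log2 scaling and quantile normalisation after removing outlier arrays; 2477 of its 62783 rows have no probe name and were left out. Precision is limited by the number of arrays.

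A gene name came from the symbol or the accession given for a probe (26003 of 60305 probes). The 25% with the lowest mean were removed. Breeds were compared with limma 3.58.1 in R, with chip fixed and sow as a random block, and with Benjamini-Hochberg adjustment over all probes or genes. Chip was removed with removeBatchEffect, keeping breed, for littermates and correlations. Litter and chip came from the study's sample table. Named were all 8 genes, the 3 genes most like each over LW, and in each list at most the 4 largest past the threshold. Among neighbours all called ones are named, those beyond the 4 largest added after their values were seen. The genes and lists were chosen with earlier results of these data known. Scripts were tested on simulated data. Alternatives were other background corrections, scaling, filters, blocks and sets of arrays. Brightness as a covariate and leaving out 3 arrays were added after seeing the data.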

Additional observations from a re-analysis of the deposited data

Results flagged for a closer look

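In KAZALD1, DD_10 lay far below the other 9 DD pigs on chip-corrected values, with a gap to the next pig of 0.686 of the DD range, at 6.74 against 7.55 and above in the others. On the deposited values the same pig was the lowest, at 7.01, with the next at 7.35. Both scales of all 12 probes were screened in the DD pigs, 24 groups in all, and about 1 in 20 groups passes the limit used by chance. The LW pigs were not screened in this way. The cause was not tested.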

How the results depend on the processing

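All 8 genes stayed higher in DD in every alternative and with any 1 pig left out. They were chosen by that difference on the same arrays, so nothing is read from its direction. With a normexp offset of 50 KAZALD1 moved to 1.26, LY6D to 0.65, GSG1 to 1.63 and TOR3A to 2.98, and with brightness SPINK4 moved to 1.62. Over probes 9809 were called, 2719 without the chip term, 649 without chip 3, 1045 with brightness and 16540 without DD_06, LW_07 and LW_15. Over genes 2484 were called, and 718, 113, 246 and 4327 in the same settings. Without sow as a block 6871 probes and 1866 genes were called, fewer than with it. The correlation within sows that the main fit used was negative, at -0.11 over probes and -0.10 over genes. Of the neighbours 15 were called, 5 without the chip term, 8 without chip 2, 0 without chip 3, 2 with brightness and 31 without the 3 pigs. Of the families 27 were called, 11 without the chip term, 17 without chip 2, 0 without chip 3, 5 with brightness and 37 without the 3 pigs. The cause was not tested. Scaling to the 75th percentile moved the calls from 4955 higher and 4854 lower to 6100 and 3113. The ratio of littermate to other differences crossed 1 for TOR3A in LW (0.98 to 1.16 without chip correction and 1.14 with scaling), PCP4 in LW (0.94 to 1.01 with scaling) and KAZALD1 in DD (0.82 to 1.24 without chip correction). The same 3 TOR3A-high LW pigs stood above the largest gap in all 5 normalisations. No paired analysis was possible because DD and LW pigs share no replicate number.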
